A study of Mus musculus with 12 samples.

Results

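The Hox cluster genes are the homeobox genes that lie side by side in the HoxA, HoxB, HoxC and HoxD clusters. They were chosen by name, as every gene symbol made of Hox, a cluster letter from a to d and a paralog number. The rule found 39 of the 25239 genes in each of 2 deposited count tables, with 11 in HoxA on chromosome 6, 10 in HoxB on chromosome 11, 9 in HoxC on chromosome 15 and 9 in HoxD on chromosome 2. The 12 libraries were made from total RNA of mouse heart cardiomyocytes and form 4 groups of 3. In the groups labelled Chaf1a cko and Chaf1a cko 3M, Cre recombinase under the cardiomyocyte promoter Myh6 acts on 2 floxed alleles of Chaf1a, the large subunit of the replication-coupled histone chaperone CAF-1. The groups labelled Ctrl and Ctrl 3M come from mice with the floxed alleles and no Cre, so Cre and genotype go together, and their genotype label reads WT. Perinatal loss is named in the series title, the labels give no age and do not spell out 3M, and the RNA is described as coming from cultured cardiomyocytes. The first table holds Ctrl and Chaf1a cko and the second holds the 3M groups, and each was analysed alone. The labels do not say that libraries of a group come from separate animals or cultures, so p-values measure only how these libraries vary, and that variation may be technical.

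Hox proteins are DNA-binding transcription factors that give body segments their identity along the head-to-tail axis. Within a cluster, genes with low paralog numbers sit at the 3′ end and are switched on first and farthest towards the head, and genes with high numbers at the 5′ end follow later and nearer the tail. Retinoic acid switches on 3′ genes, trithorax (MLL) proteins keep active genes on, and Polycomb proteins keep silent genes off. In the embryo, cells that contribute to the outflow tract and atria of the heart pass through a phase of 3′ Hox expression, and adult fibroblasts, smooth muscle and mesothelium often retain the Hox code of their position.

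Library totals were between 15068468 and 20896673 counts in the first table and between 10569325 and 16445963 in the 3M table. Levels are given in CPM, a count divided by the TMM-scaled library total and set to a common scale (edgeR cpm). The targeted gene Chaf1a was at 22.7, 32.3 and 18.8 CPM in Ctrl, and its Chaf1a cko libraries had 29.0, 24.5 and 22.0 CPM. In the 3M table it was at 1.88, 4.74 and 9.75 CPM (Ctrl 3M) and 8.34, 5.58 and 5.54 CPM (Chaf1a cko 3M). Its mean was not lower in the groups labelled as knockout (edgeR adjusted p = 0.981 and 0.952), the floxed exons are not named in the labels, and group names below stand for the labels. Every library had counts on the defining cardiomyocyte markers. Of 1545 chemoreceptor genes (odour, pheromone and taste receptors, taken here as mostly silent in heart), 94.7% to 97.5% had counts in the single libraries of the first table and 1.23% to 1.68% in those of the 3M table. In the 3M table low values lay on steps: 45.9% to 48.5% of the values from 1 to 40 were multiples of 4, against 25.9% to 26.6% in the first table, so a count there is not 1 independent fragment.

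In the 3M table most of the Hox genes that were detected belonged to the 3′ and middle parts of HoxA, HoxB and HoxD, and their mean level was lower in the libraries labelled Chaf1a cko 3M than in Ctrl 3M for 20 of the 21 detected, where 51.6% of all genes with counts had a lower mean. For 7 of the 21 every Chaf1a cko 3M library was below every Ctrl 3M library, as for 5.83% of all genes with counts. The summed level of the 39 genes was 35.2, 60.1 and 75.3 CPM in Ctrl 3M, against 8.998, 4.11 and 23.1 CPM in Chaf1a cko 3M, or 56.9 ± 20.3 against 12.1 ± 9.87 CPM (SD, n = 3 each). All 3 Ctrl 3M libraries lay above all 3 Chaf1a cko 3M libraries. The ratio of the means was 0.212, and it was 0.115 without Chaf1a cko 3M replicate 3, the highest of its group. No Hox gene was past the adjusted threshold of 0.05 in edgeR's quasi-likelihood test (0 of 10 tested), where 0.0144% of all genes tested were. In bulk RNA, fewer cells of a type and less RNA per cell cannot be told apart.

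The 250 bases before the start are shown for Hoxb4, Hoxd4, Hoxd8 and Hoxa5, the 4 genes with the highest 3M levels among those whose groups did not overlap and which have an entry in the RefSeq promoter table, to let a reader see how unlike the promoters of these genes are. Capitals mark AGGTCA, the half-site bound by retinoic acid receptors and other nuclear receptors, which reads TGACCT where it lies on the other strand. Sequences are RefSeq's on GRCm38.p6, 5′ to 3′ on the gene's strand. Hoxb4 is at chr11:96318017-96318266 (plus strand), Hoxd4 at chr2:74721728-74721977 (plus), Hoxd8 at chr2:74704365-74704614 (plus) and Hoxa5 at chr6:52204588-52204837 (minus).
Hoxb4: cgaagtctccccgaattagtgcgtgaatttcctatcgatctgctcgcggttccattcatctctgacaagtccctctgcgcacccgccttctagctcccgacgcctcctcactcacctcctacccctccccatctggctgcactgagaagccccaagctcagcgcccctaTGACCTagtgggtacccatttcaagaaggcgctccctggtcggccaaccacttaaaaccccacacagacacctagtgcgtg
Hoxd4: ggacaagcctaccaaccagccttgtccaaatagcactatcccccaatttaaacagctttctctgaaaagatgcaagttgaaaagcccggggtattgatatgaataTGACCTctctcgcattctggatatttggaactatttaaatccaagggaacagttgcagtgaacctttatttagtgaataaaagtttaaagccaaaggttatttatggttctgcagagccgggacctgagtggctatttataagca
Hoxd8: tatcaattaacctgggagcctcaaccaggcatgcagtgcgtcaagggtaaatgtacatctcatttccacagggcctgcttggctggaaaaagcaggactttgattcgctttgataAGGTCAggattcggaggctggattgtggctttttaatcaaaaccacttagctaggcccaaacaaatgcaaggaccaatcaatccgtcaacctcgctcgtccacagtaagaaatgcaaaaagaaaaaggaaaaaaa
Hoxa5: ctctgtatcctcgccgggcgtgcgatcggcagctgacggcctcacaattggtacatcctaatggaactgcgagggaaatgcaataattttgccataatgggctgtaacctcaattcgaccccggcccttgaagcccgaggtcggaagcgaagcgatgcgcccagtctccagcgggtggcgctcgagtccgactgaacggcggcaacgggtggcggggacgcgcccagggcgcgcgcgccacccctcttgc
The half-site was found once in each of Hoxb4, Hoxd4 and Hoxd8, with its first base in the printed sequence 81, 145 and 135 bases before the start, and not in Hoxa5. GC content was 58% in Hoxb4 and 63.6% in Hoxa5, with 14 and 28 CpG pairs, and 40.4% in Hoxd4 and 44.4% in Hoxd8, with 3 and 6 CpG pairs.

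The promoter table held 22 of the 39 genes. AGGTCA was in 6 of the 22 (27.3%: Hoxb4, Hoxc4, Hoxd3, Hoxd4, Hoxd8 and Hoxd10), against 14% of 32851 promoter windows of the same length, and the related half-site AGTTCA was in 2 (9.09%) against 11.8%. The Hox-Pbx type site TGATNNAT was in 4 of 22 against 7.68%, and its stricter form TGATTNAT, contained in it, was in 2 against 2.82%. CCAAT, bound by NF-Y, was in 14 of 22 (63.6%) against 33.8%. The TATA box TATAAA was in 4 against 12.4%, the E-box CACGTG was in 4 against 6.02%, and the Meis type site TGACAG was in 2 against 15.9%. Of the sites of posterior Hox and Cdx proteins, TTTATNG was in 2 against 9.81%, its form TTTATGG was in 1 against 2.43%, and TTTACGA was in 1 against 0.478%. The homeodomain site TAATTA was in 1 against 4.84% and the GATA site GATAAG was in 1 against 6.55%. The YY1 core CCATNTT was in 1 against 12.4%, and GCCATNTT, which contains it, was in 1 against 3.91%. Both strands were searched for all 15 motifs. The promoters of the Hox genes had a median GC content of 58.6% against 52.4% over all windows, and a median CpG observed-to-expected ratio of 0.72 against 0.37. These matches describe letters in a window and not bound sites.

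Of the 39 genes, 21 had any count in the 3M table and 18 were at 0 in all 6 libraries. By mean level, 14 of the 39 were above the 99th percentile of the chemoreceptor genes, which was 0.338 CPM there. More genes were detected at low than at high paralog numbers, though not in strict order within a cluster: Hoxb1 and Hoxd1, at the 3′ ends, were at 0, and Hoxd9 and Hoxd10 had counts. Of the 19 genes with paralog numbers 1 to 8 in HoxA, HoxB and HoxD, 16 had counts, against 4 of the 16 genes with numbers 9 to 13 in all 4 clusters. Only the second set includes HoxC, whose genes with these numbers were all at 0, so part of the contrast is between clusters. HoxC, which has no genes with numbers 1 to 3, was nearly empty: its only counts were 3 on Hoxc8 in Ctrl 3M replicate 2. Paralog groups 11, 12 and 13, which pattern limbs, tail and urogenital tract, were at 0 in every library. A count of 0 over a group is read here as up to 12 counts (3 steps of 4), so low expression of these genes was not detectable at this depth.

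**Figure D1:**
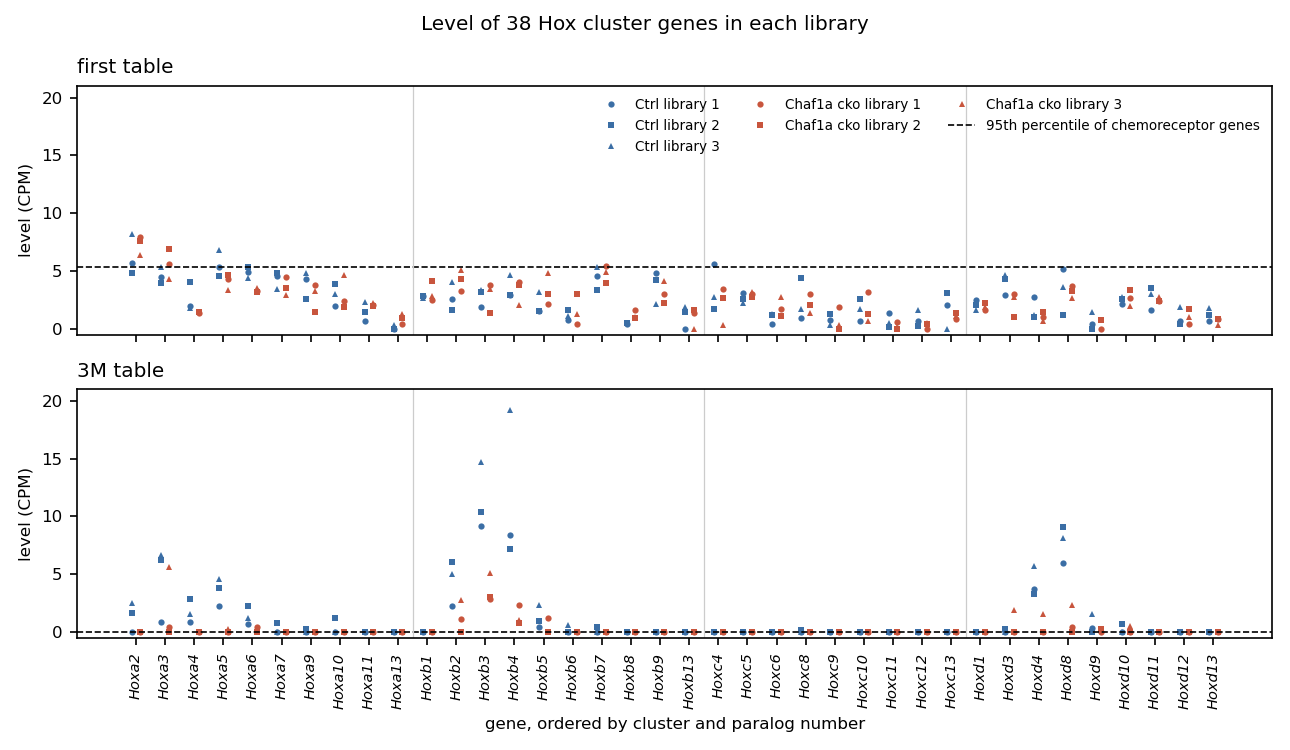
Level (CPM, linear axis) of 38 of the 39 Hox cluster genes in each library of the first table (top) and the 3M table (bottom); blue is Ctrl, red is Chaf1a cko, marker shape is the replicate number and the dashed line is the 95th percentile of 1545 chemoreceptor genes (5.38 CPM in the first table, 0 in the 3M table). In the 3M table most of the detected genes have low paralog numbers in HoxA, HoxB and HoxD, and 18 genes are at 0 in all 6 libraries.

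HoxB carried the largest summed level in 3M controls, at 20.4, 25.1 and 41.9 CPM in Ctrl 3M, against 7.59, 3.85 and 8.98 CPM in Chaf1a cko 3M. HoxA summed to 4.69, 21.5 and 17.9 CPM in Ctrl 3M, against 0.937, 0 and 7.51 CPM in Chaf1a cko 3M. HoxD summed to 10.1, 13.4 and 15.5 CPM in Ctrl 3M, against 0.469, 0.257 and 6.62 CPM in Chaf1a cko 3M. The groups did not overlap in HoxB and HoxD, while in HoxA the lowest Ctrl 3M library was below the highest Chaf1a cko 3M library. Chaf1a cko 3M replicate 3 was the highest of its group in all 3 clusters, and replicate 2, with 3 Hox genes detected, was the lowest.

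By paralog number, groups 3 and 4 held the highest levels, 16.1 ± 5.69 and 17.7 ± 7.69 CPM in Ctrl 3M against 6.37 ± 5.45 and 1.93 ± 1.02 CPM in Chaf1a cko 3M (SD, n = 3 each). Group 4 was at 13.04, 13.4 and 26.5 CPM against 2.34, 0.770 and 2.67 CPM, and group 8 at 6.004, 9.30 and 8.15 CPM against 0.469, 0 and 2.36 CPM. The libraries of these groups did not overlap. In group 3 the highest Chaf1a cko 3M library, at 12.7 CPM, was above the lowest Ctrl 3M library, at 10.04 CPM. Numbers 9 to 13 together came to 1.39 ± 0.926 CPM in Ctrl 3M, against 0.340 ± 0.389 CPM in Chaf1a cko 3M. No test was made of sums over these genes.

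**Figure D2:**
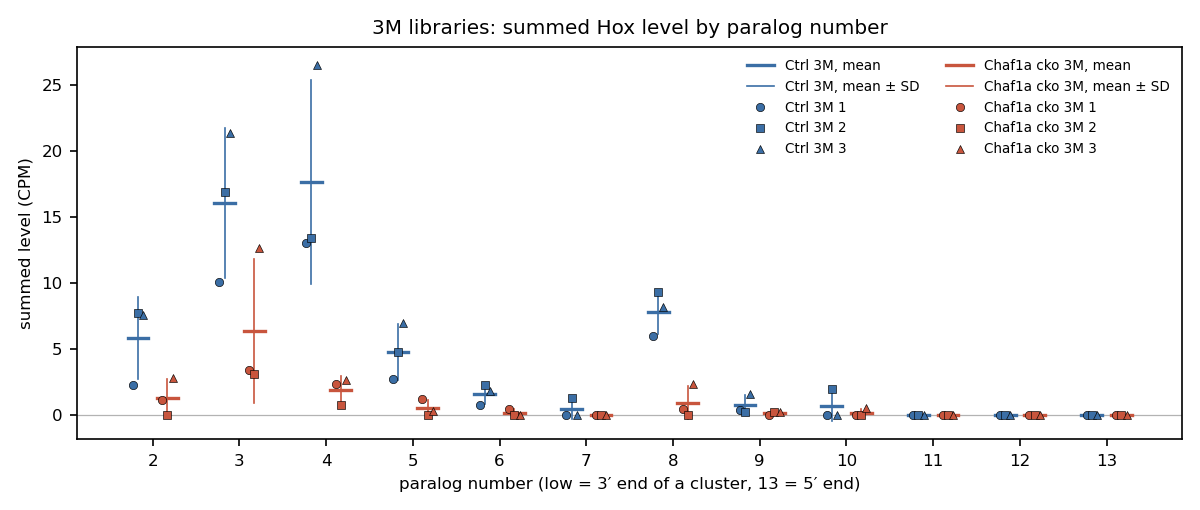
Summed level (CPM, linear axis) of the genes of each paralog number from 2 to 13 in the 3M libraries; points are libraries, thick bars the mean of 3 and thin bars ± 1 SD. Groups 3, 4 and 8 stand highest in Ctrl 3M, and groups 11 to 13 are at 0 in every library.

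The 21 genes with counts share their 6 libraries, so the 20 with a lower mean in Chaf1a cko 3M are not independent. Of the 20, 5 had counts in Ctrl 3M replicate 2 alone, between 3 and 21 (Hoxa7, Hoxa9, Hoxa10, Hoxb7 and Hoxc8), and Hoxb6 had its 8 counts in Ctrl 3M replicate 3. The exception to the lower mean was Hoxd3, whose only counts were 4 in Ctrl 3M replicate 2 and 30 in Chaf1a cko 3M replicate 3. The 7 genes without overlap were Hoxa4, Hoxa5, Hoxa6, Hoxb3, Hoxb4, Hoxd4 and Hoxd8, and the libraries of Chaf1a cko 3M lay wholly above for 0 of 21, against 6.09%. Genes with a count numbered 11, 19 and 14 per Ctrl 3M library and 7, 3 and 11 per Chaf1a cko 3M library.

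The filter on low counts left 10 of the 39 genes in the 3M test, and Hoxa4 and Hoxa5 passed it through the Ctrl 3M libraries only. At an unadjusted p under 0.05, 5 of the 10 were lower (Hoxa4, Hoxa5, Hoxb3, Hoxb4 and Hoxd8; background 3.73%) and 0 were higher (background 3.2%). Without Hoxa4 and Hoxa5, which could pass the filter only if Ctrl 3M was high, 3 of 8 were lower (Hoxb3, Hoxb4 and Hoxd8). The smallest adjusted p was 0.522. With the Wald test of DESeq2, 3 of 14 genes with an adjusted p were lower and past the threshold, Hoxb4 (adjusted p = 0.00274), Hoxa5 (0.0340) and Hoxa4 (0.0392), where 0.288% of all genes were called lower, and 0 were called higher (background 0.209%). The calls thus depend on the tool. The median log2 fold change of the 10 was -2.36, or -2.25 with Hoxa4 and Hoxa5 set to the floor of 12 counts in Chaf1a cko 3M, beside -0.02 over all genes tested, and is a description since the filter favours genes high in a group.

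Hoxb4, a paralog group 4 factor known for its role in blood stem cells, had the highest level per kb of exon over the 3M libraries (2.54 CPM per kb). It lies at chr11:96318267-96321638 (GRCm38.p6, as for all positions here). It stood at 8.44, 7.22 and 19.2 CPM in Ctrl 3M, against 2.34, 0.770 and 1.08 CPM in Chaf1a cko 3M. Each control library was above every Chaf1a cko 3M library, and Ctrl 3M replicate 3 was the highest. The log2 fold change was -3.07 ± 0.63 (SE; 95% interval -4.49 to -1.64; edgeR adjusted p = 0.522).

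Hoxb3 (chr11:96307101-96347930), which patterns the hindbrain and pharyngeal arches, had the second highest level per kb, 1.78. It was at 9.19, 10.4 and 14.7 CPM in Ctrl 3M, against 2.91, 3.08 and 5.09 CPM in Chaf1a cko 3M. The groups did not overlap, and Hoxb3 was among the 3 Hox genes detected in Chaf1a cko 3M replicate 2. Its log2 fold change was -1.62 ± 0.42 (SE; edgeR adjusted p = 0.569). The noncoding gene Hoxb3os, on the opposite strand, covers 52.9% of its exon bases, and as no source used here says whether strand was used in counting, reads of the pair cannot be told apart. Hoxb3os was at 1.97, 1.36 and 1.12 CPM against 0.188, 0 and 0 CPM.

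Hoxb2 (chr11:96351632-96354020), a regulator of hindbrain segments, was at 2.25, 6.04 and 5.04 CPM in Ctrl 3M, against 1.13, 0 and 2.80 CPM in Chaf1a cko 3M, and the groups overlapped. Its log2 fold change was -1.76 ± 1.23 (SE; edgeR adjusted p = 0.806), and 27.3% of its exon bases are shared with Hoxb3os. Hoxb5, with roles in the gut, lung and enteric nerves, had overlapping groups at 0.469, 0.947 and 2.32 CPM against 1.22, 0 and 0 CPM. Hoxb6 and Hoxb7 had 8 counts each, in 1 control library each, which is under the floor. Hoxb1, Hoxb8, Hoxb9 and Hoxb13 were at 0 throughout. Within HoxB, detection thus ran from Hoxb2 to Hoxb7, and the level was high only in Hoxb2, Hoxb3 and Hoxb4.

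In HoxD, Hoxd8 (chr2:74704615-74707933), a gene of the middle of the cluster, was at 6.004, 9.12 and 8.15 CPM in Ctrl 3M, against 0.469, 0 and 2.36 CPM in Chaf1a cko 3M. Its control libraries were close together, with a mean of 7.76 ± 1.59 CPM against 0.941 ± 1.25 CPM (SD, n = 3 each), and the groups did not overlap. The log2 fold change was -3.02 ± 1.17 (SE; edgeR adjusted p = 0.712). Hoxd4 (chr2:74721978-74729160), a paralog of Hoxb4, was at 3.75, 3.32 and 5.75 CPM in Ctrl 3M, against 0, 0 and 1.59 CPM in Chaf1a cko 3M. The groups did not overlap, and the log2 fold change was -2.96 ± 1.51 (SE; edgeR adjusted p = 0.749). Hoxd4 shares 13.2% of its exon bases with Hoxd3 on the same strand, so the 2 genes cannot be fully separated.

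Hoxd9, a limb and trunk gene, was at 0.375, 0 and 1.598 CPM in Ctrl 3M, against 0, 0.257 and 0.255 CPM in Chaf1a cko 3M, with overlapping groups. Hoxd10 had counts in 1 library of each group, 12 in Ctrl 3M replicate 2 and 8 in Chaf1a cko 3M replicate 3. Hoxd1, Hoxd11, Hoxd12 and Hoxd13 were at 0 throughout.

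In HoxA, Hoxa5 (chr6:52201754-52204587), known for lung and trunk skeleton development, was at 2.25, 3.79 and 4.64 CPM in Ctrl 3M, against 0, 0 and 0.318 CPM in Chaf1a cko 3M. The groups did not overlap, with 146 counts against 5, which is under the floor of 12. At that floor the level would be 12.7-fold lower, and the fitted log2 fold change of -4.88 ± 1.48 (SE; edgeR adjusted p = 0.607) rests on the 5 counts. Hoxa4 (chr6:52189682-52191703), a further paralog group 4 gene, was at 0.844, 2.84 and 1.598 CPM in Ctrl 3M, with 0 in all 3 libraries of Chaf1a cko 3M. Against the floor of 12 counts over the group it was at least 6.72-fold lower. Hoxa6, the neighbour of Hoxa5, was at 0.751, 2.25 and 1.20 CPM against 0.469, 0 and 0 CPM, again without overlap, and did not pass the filter.

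Hoxa3 (chr6:52169059-52213067), needed for thymus, parathyroid and throat vessels, did not follow the group labels. It was at 0.844, 6.28 and 6.63 CPM in Ctrl 3M, against 0.469, 0 and 5.67 CPM in Chaf1a cko 3M. Chaf1a cko 3M replicate 3 was thus near the higher controls, and Ctrl 3M replicate 1 near the lower libraries. Its log2 fold change was -1.15 ± 1.53 (SE; edgeR adjusted p = 0.901).

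Hoxa2, which patterns the second pharyngeal arch, was at 0, 1.66 and 2.56 CPM in Ctrl 3M, with 0 in Chaf1a cko 3M, at least 5.24-fold lower against the floor. Because Ctrl 3M replicate 1 was also at 0, its groups overlapped. Hoxa7, Hoxa9 and Hoxa10 had counts in Ctrl 3M replicate 2 only, 14, 4 and 21. In all, 8 of the 21 genes with counts were at 0 in the 3 libraries of Chaf1a cko 3M (Hoxa2, Hoxa4, Hoxa7, Hoxa9, Hoxa10, Hoxb6, Hoxb7 and Hoxc8). Apart from Hoxa2 and Hoxa4, each of these had counts in 1 library only, between 3 and 21. The share of such genes over all genes with counts was not taken, so the number is a description. Hoxa11 and Hoxa13 were at 0 throughout.

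**Figure D3:**
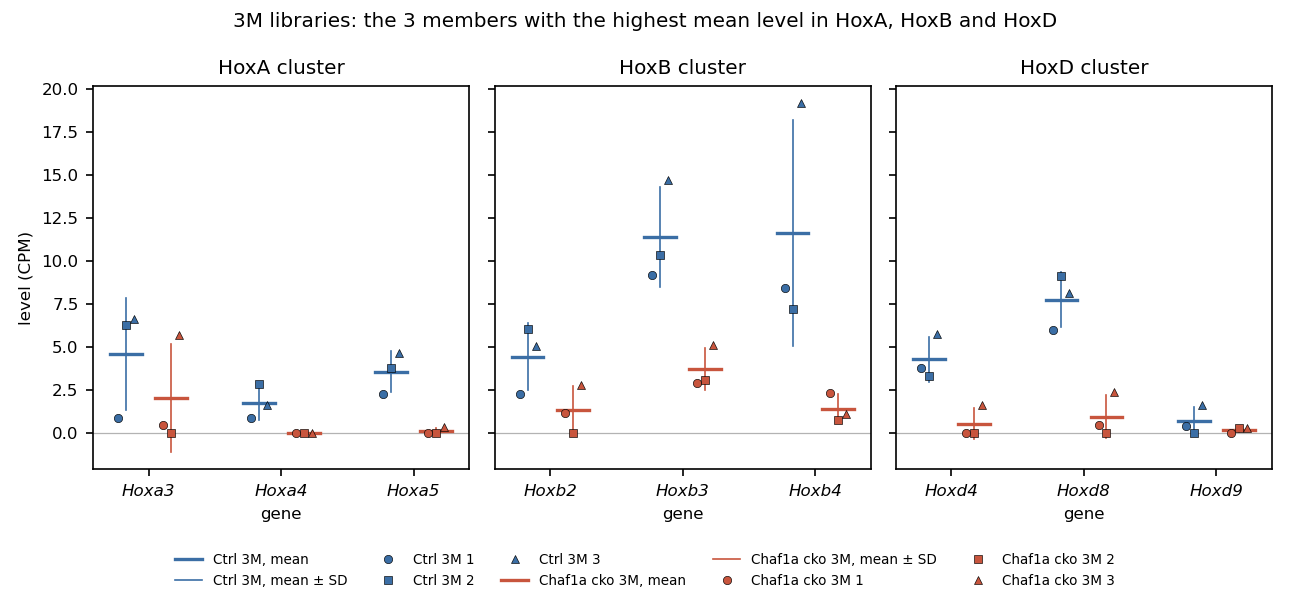
Level (CPM, linear axis) in the 3M libraries of the 3 Hox genes with the highest mean level in HoxA, HoxB and HoxD; points are libraries, thick bars the mean of 3 and thin bars ± 1 SD. Hoxa4, Hoxa5, Hoxb3, Hoxb4, Hoxd4 and Hoxd8 have groups that do not overlap, and in Hoxa3 the Chaf1a cko 3M replicate 3 point at 5.67 CPM stands among the controls.

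In the first table the Hox genes lay near the level of genes that should be silent, and no difference between the groups was found. Summed, they were at 98.9, 103.4 and 111.8 CPM in Ctrl, against 102.5, 99.5 and 97.7 CPM in Chaf1a cko, with a ratio of means of 0.954. All 39 had counts, also those of HoxC and of the 5′ ends: HoxC summed to 15.2 ± 2.74 CPM in Ctrl, against 13.4 ± 3.82 CPM in Chaf1a cko, and numbers 9 to 13 to 27.4 ± 3.74 and 24.7 ± 2.07 CPM (SD, n = 3 each). The chemoreceptor genes had a median of 1.66 CPM and a 95th percentile of 5.38 CPM there, and 2 of 39 Hox genes had a mean above that percentile, Hoxa2 among them. Per kb of exon 4 were above it (Hoxa6, Hoxa2 and Hoxb7 among them), and 0 were above the 99th percentile of 8.59 CPM. For most of these genes, levels in the first table could thus not be told from background.

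Of the 36 genes tested in the first table, edgeR called 0 (background 1.18%), and at an unadjusted p under 0.05 it had 0 lower (background 4.5%) and 0 higher (background 5.63%). DESeq2 gave an adjusted p to 0 of the 39, and over all genes it called 1.7% lower and 3.21% higher. The mean was lower in Chaf1a cko for 23 of 39, against 51.2% of all genes with counts. The ranges lay wholly below Ctrl for 2 (Hoxa4 and Hoxa6; background 7.56%) and wholly above for 2 (Hoxa13 and Hoxb8; background 8.03%). These shares are close to the background.

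In HoxA, Hoxa2 was at 5.69, 4.81 and 8.18 CPM in Ctrl, against 7.94, 7.60 and 6.36 CPM in Chaf1a cko. In HoxB the highest were Hoxb7, a trunk gene, at 4.62, 3.42 and 5.39 CPM against 5.47, 3.99 and 4.93 CPM, and Hoxb2 at 2.61, 1.66 and 4.06 CPM against 3.25, 4.30 and 5.13 CPM. In HoxC they were Hoxc5 at 3.08, 2.64 and 2.22 CPM against 3.01, 2.76 and 3.21 CPM, and Hoxc4 at 5.62, 1.76 and 2.74 CPM against 3.43, 2.71 and 0.395 CPM. Groups overlapped in all of these genes.

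Hoxd8 in the first table was at 5.22, 1.19 and 3.59 CPM in Ctrl, against 3.73, 3.29 and 2.71 CPM in Chaf1a cko. Hoxd3, another paralog group 3 gene and the member with the smallest p of the table, was at 2.94, 4.35 and 4.68 CPM against 3.07, 1.01 and 2.76 CPM (log2 fold change -0.81 ± 0.42, SE; edgeR adjusted p = 0.550). Hoxb8 was at 0.402, 0.517 and 0.567 CPM against 1.62, 0.957 and 1.09 CPM (1.28 ± 0.69; 0.576), without overlap. Hoxa4 was at 2.01, 4.04 and 1.80 CPM against 1.38, 1.49 and 1.48 CPM (-0.85 ± 0.47; 0.586). Hoxa6 was at 4.95, 5.33 and 4.44 CPM against 3.25, 3.19 and 3.55 CPM (-0.56 ± 0.31; 0.588). Of these 4, Hoxa4 and Hoxa6 also had no overlap and lower Chaf1a cko levels in the 3M table. For Hoxa6 the nearest 3M libraries had only 8 counts against 5. In the first table both had a mean CPM under the 95th percentile of the chemoreceptor genes, though Hoxa6 was above it per kb of exon. Lower levels without overlap were no more frequent among the Hox genes there than over all genes.

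Intervals of the fold change in both tables are set side by side for the leading genes. For Hoxb4 the 95% interval of the log2 fold change was -0.89 to 0.69 in the first table and -4.49 to -1.64 in the 3M table. For Hoxb3 it was -0.88 to 0.93 and -2.58 to -0.66, and for Hoxd8 -0.96 to 0.90 and -5.72 to -0.31. In the first table the mean levels of these 3 genes were below the 95th percentile of the chemoreceptor genes. The difference between the tables was not tested, as they were counted and normalized separately.

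**Figure D4:**
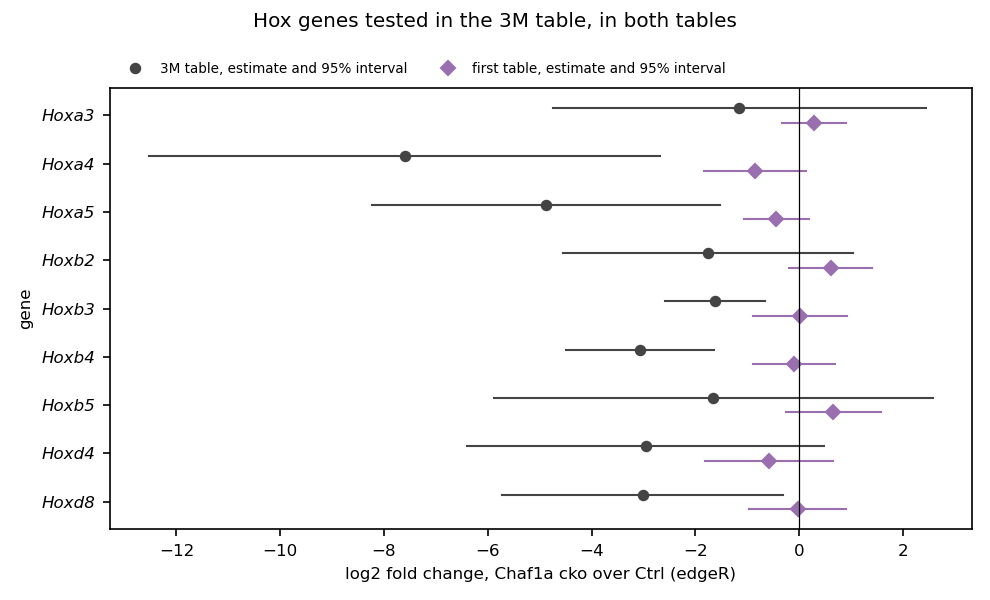
Log2 fold change of Chaf1a cko over Ctrl with its 95% interval (edgeR) for 9 of the 10 Hox genes tested in the 3M table (circles) and the same genes in the first table (diamonds). All 9 estimates of the 3M table are below 0, with intervals that exclude 0 for Hoxb3, Hoxb4 and Hoxd8. The intervals of Hoxa4 and Hoxa5 also exclude 0. These genes passed the filter through Ctrl 3M only, and their estimates rest on 0 and 5 counts in Chaf1a cko 3M.

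Noncoding genes of the Hox clusters were few in the 3M table, where 5 of 18 had counts. All 5 had a lower mean in Chaf1a cko 3M and Hoxb3os alone had no overlap, and none was called (edgeR, 0 of 3 tested; 1 lower at an unadjusted p under 0.05). The most abundant were Halr1, at 1.69, 5.03 and 0.799 CPM against 1.13, 2.18 and 1.15 CPM, and Hotairm1, of the HoxA cluster, at 1.88, 0.474 and 1.20 CPM against 1.13, 0 and 0.446 CPM. Of 11 such genes tested in the first table, 1 was called. Hoxaas2, an antisense gene that shares exon bases with Hoxa3, was at 2.88, 3.36 and 3.36 CPM in Ctrl, against 0.782, 0.425 and 0.839 CPM in Chaf1a cko (log2 fold change -2.22 ± 0.48, SE; edgeR adjusted p = 0.0279). These levels were below the 95th percentile of the chemoreceptor genes, DESeq2 gave no adjusted p, and leaving out any 1 of the 6 libraries ended the call (adjusted p from 0.0611 to 0.135), as did the replicate block (0.0633). The log2 fold change was then between -2.40 and -1.97, and -2.25 under the block. In the 3M table Hoxaas2 had counts in Ctrl 3M replicate 3 only.

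Of the 14 genes that flank the clusters 10 had counts in the 3M table, 5 of them with a lower mean in Chaf1a cko 3M, and none of the 9 tested was called (edgeR; 1 higher and 0 lower at an unadjusted p under 0.05). Skap2 lay wholly below Ctrl 3M, and Lnpk and Calcoco1 wholly above. Beside HoxA, Hibadh had a mean of 61.0 CPM in Ctrl 3M, against 61.3 CPM in Chaf1a cko 3M, and Snx10 of 39.8 and 28.6 CPM with overlapping groups. Skap2 was at 23.9, 23.9 and 23.5 CPM against 14.1, 12.1 and 23.2 CPM (log2 fold change -0.53 ± 0.30, SE; edgeR adjusted p = 0.763). Beside HoxD, Mtx2 had means of 31.4 and 30.8 CPM, and Lnpk was at 14.2, 22.7 and 25.1 CPM against 33.6, 29.1 and 28.4 CPM (log2 fold change 0.56 ± 0.27, SE; edgeR adjusted p = 0.736). Beside HoxC, Calcoco1 was at 43.0, 54.5 and 47.3 CPM against 78.6, 75.9 and 78.2 CPM (log2 fold change 0.68 ± 0.19, SE; edgeR adjusted p = 0.595), while Hnrnpa1, Cbx5 and Smug1 had log2 fold changes of 0.07, 0.08 and -0.13. Beside HoxB, Skap1 was at 0, 0.533 and 0.719 CPM against 0, and Calcoco2 and Ttll6 were at 0 throughout, as were the homeobox genes Evx1 and Evx2 at the 5′ ends of HoxA and HoxD. In the first table none of the 14 neighbour genes was called or had an unadjusted p under 0.05.

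The proteins that act with or on Hox genes were expressed in both 3M groups and none was called there. Of the cofactors, 0 of 9 tested were called (1 lower and 0 higher at an unadjusted p under 0.05), with Pbx2 at 48.5 ± 9.41 CPM in Ctrl 3M, against 48.5 ± 5.78 CPM in Chaf1a cko 3M (SD, n = 3 each). Of 32 Polycomb genes 0 were called, also at an unadjusted p under 0.05, with log2 fold changes of 0.01 ± 0.30 for Cbx6, a reader of the Polycomb mark, and -0.20 ± 0.19 for Rbbp4, which is also a CAF-1 subunit. Of 22 trithorax and MLL genes 0 were called (1 higher and 1 lower at an unadjusted p under 0.05). The log2 fold change was 0.33 ± 0.18 for Dot1l, a histone H3 methyltransferase, and -0.09 ± 0.18 for Kmt2a, which encodes MLL1. The wide intervals do not show that these genes were the same in both groups.

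In the retinoic acid pathway 0 of 17 genes tested were called (1 higher and 0 lower at an unadjusted p under 0.05). Dhrs3, which turns retinal back to retinol, had a log2 fold change of 0.32 ± 0.20 and the corepressor gene Ncor1 of -0.02 ± 0.60. Cyp26b1, an enzyme that breaks down retinoic acid, is named after its values were seen: it was at 14.5, 12.8 and 13.1 CPM in Ctrl 3M, against 148.5, 43.1 and 12.99 CPM in Chaf1a cko 3M (2.34 ± 0.87; adjusted p = 0.712). Its Chaf1a cko 3M libraries ran from the control level in replicate 3 to far above it in replicate 1. Aldh1a2, which makes retinoic acid, was at 21.4, 5.33 and 3.84 CPM against 3.94, 8.34 and 2.29 CPM. Of 5 upstream factors tested 0 were called, also at an unadjusted p under 0.05, with Ctcf at -0.22 ± 0.18. In the first table the same lists held 1 call, Uty, a Y-linked relative of Kdm6a, at 7.49, 9.05 and 6.76 CPM against 18.2, 20.9 and 16.97 CPM (edgeR adjusted p = 0.00192).

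Marker levels of other heart cells also differed between the 3M groups. The summed level of 8 epicardium and mesothelium markers was 147.5, 73.1 and 90.5 CPM in Ctrl 3M, against 52.8, 42.1 and 25.9 CPM in Chaf1a cko 3M, without overlap. Of the 6 with counts 5 had a lower mean and 1 had no overlap, the epicardial factor Wt1 at 120, 52.3 and 74.0 CPM against 26.2, 24.8 and 14.7 CPM (log2 fold change -1.91 ± 0.36, SE; edgeR adjusted p = 0.416). Wt1 made up most of each Ctrl 3M sum, and the rest of the list, summed without it, overlapped between the groups. The defining mesothelial markers Upk3b and Msln were at 0 in all 6 libraries.

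The 9 macrophage markers summed to 467.1, 391.6 and 445.4 CPM in Ctrl 3M, against 282.7, 253.7 and 247.3 CPM in Chaf1a cko 3M, and 4 of 9 (Lyz2, Mrc1, C1qa and C1qb) had no overlap, lower in Chaf1a cko 3M. The 9 cardiomyocyte markers summed to between 32435 and 38328 CPM in Ctrl 3M and between 46193 and 51549 CPM in Chaf1a cko 3M, without overlap. Single markers differed: 3 of the 9 had a lower mean in Chaf1a cko 3M, and the median log2 fold change was 0.07. The 7 erythroid markers summed to 688.8, 446.6 and 1036 CPM in Ctrl 3M, against 4012, 3251 and 445.9 CPM in Chaf1a cko 3M, though 3 of the 7 had a lower mean there. The erythroid sum was thus several times higher in Chaf1a cko 3M replicates 1 and 2, the libraries with the lowest Hox sums. In replicate 3, which had the highest Hox sum of its group, it was at the level of the lowest control. The epicardial and macrophage sums were both highest in Ctrl 3M replicate 1, which had the lowest Hox sum of the controls. Both were lowest in Chaf1a cko 3M replicate 3. With 3 libraries per group, whether any of these marker sums goes with the Hox sum was not tested. The globin gene Hbb-bs, named after its values were seen, was at 1.03, 5.39 and 0 CPM against 1645, 1029 and 0 CPM (edgeR adjusted p = 0.712), and near-identical globin copies can share reads. Sums of fibroblast, endothelial, mural and nerve markers overlapped between the 3M groups, at 1976 to 2884 against 1926 to 2130 CPM for fibroblasts and 3647 to 5105 against 3619 to 4190 CPM for endothelium. Of all these markers edgeR called 0 in the 3M table; at an unadjusted p under 0.05, 1 epicardial, 4 macrophage, 1 fibroblast and 1 endothelial marker were lower and 3 cardiomyocyte markers and 1 erythroid marker were higher. The part of these other cell types in the Hox levels was not tested. In the first table Wt1 was at 44.2 to 47.0 CPM in Ctrl, against 41.3 to 50.3 CPM in Chaf1a cko, and Hox sums overlapped as well.

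**Figure D5:**
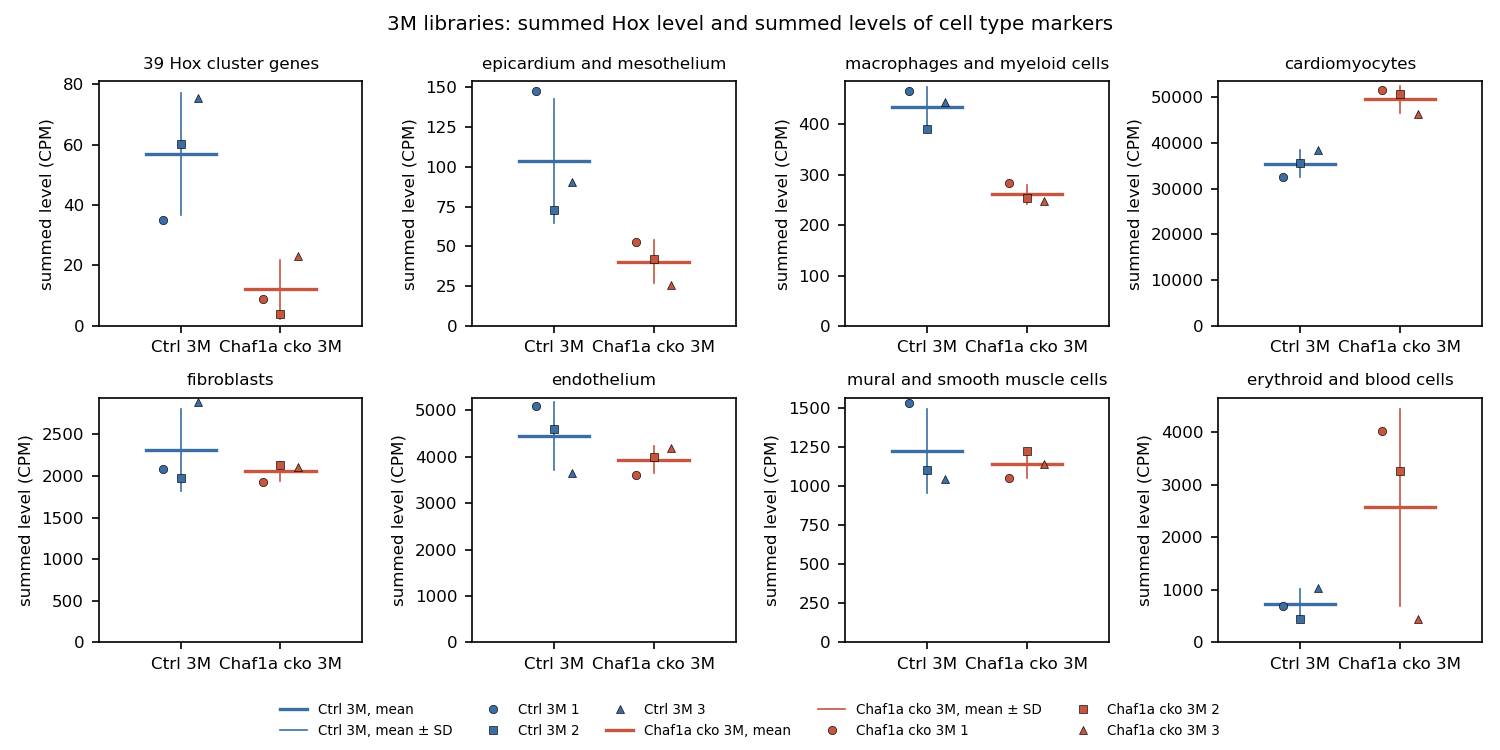
Summed level (CPM, linear axes from 0) in the 3M libraries of the 39 Hox genes and of marker lists of 7 cell types; points are libraries, thick bars the mean of 3 and thin bars ± 1 SD. The Hox, epicardial and macrophage sums are lower in all 3 Chaf1a cko 3M libraries, the cardiomyocyte sum is higher in all 3, the fibroblast, endothelial and mural sums overlap, and the erythroid sum is high in Chaf1a cko 3M replicates 1 and 2 and at 445.9 CPM in replicate 3. Wt1 makes up most of the epicardial sum in Ctrl 3M. A lower mean in Chaf1a cko 3M is found for 3 of 9 cardiomyocyte and 3 of 7 erythroid markers.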

How the data were processed

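Libraries were stranded and ribosomal RNA was depleted from the total RNA of cultured cardiomyocytes, per the labels' protocols. The authors deposited raw gene counts in 2 tables of 6 libraries. Reads were handled with FastQC, Trimmomatic and HISAT2 on mm10, per the submitters' processing notes. No source used here gives the counting program, its annotation or its use of strand. Groups come from the sample titles. Tables were fitted separately with edgeR 4.0.16 in R 4.3.3 (filterByExpr with minimum count 10 and total 15, TMM, robust glmQLFit, glmQLFTest, two-sided, Benjamini-Hochberg over all genes, threshold 0.05), and fits were checked on simulated counts. Counts over genes with non-overlapping ranges or lower means use every gene with a count. Alternatives were DESeq2 1.42.0, other scalings and filters, a replicate block, leaving out libraries and, added after seeing the data, 3M counts divided by 4. Exon lengths come from GENCODE vM21 and promoters from RefSeq. Members and lists were chosen with earlier results of these data known. Named were called members, the 3 highest per cluster in the 3M table and, in the first, the 2 highest per cluster and the 4 with the smallest p. Other members are given by their levels, and a few genes are not reported here. Of each further list, called members or the 2 most abundant were named, and all neighbours. Replicate numbers did not pair libraries: correlations of deviations between groups lay between -0.0424 and 0.0381. Intervals cover counting error and library spread.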

Additional observations from a re-analysis of the deposited data

How the results depend on the processing

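Among the 3M libraries 0 Hox genes were called under other scalings, both other filters, the replicate block, counts divided by 4 and leaving out each library (0 to 0), and 3 under DESeq2's Wald test (Hoxa4, Hoxa5 and Hoxb4). The cause was not tested. All 123 alternative log2 fold changes of the 10 tested genes kept their sign, but their size moved with single libraries. Without Chaf1a cko 3M replicate 3 the log2 fold change was -8.83 for Hoxd4 and -8.57 for Hoxa5, whose other Chaf1a cko 3M libraries are at 0, -5.14 for Hoxd8, -4.35 for Hoxa3 and -3.03 for Hoxb2. Hoxb5 was at -7.16 without Chaf1a cko 3M replicate 1, which holds all its counts in that group, and at -0.84 without Ctrl 3M replicate 3. Without Chaf1a cko 3M replicate 2, Hoxa3 was at -0.57 and Hoxb2 at -1.17. For Hoxb3 and Hoxb4 the ranges with a library left out were -1.93 to -1.40 and -3.63 to -2.49. The 3M ratio of summed Hox levels ranged from 0.115 to 0.282 with a library left out and from 0.211 to 0.216 under the other settings. Genes with a lower mean numbered 14 to 21, and genes without overlap 7 to 10, with a library left out, which makes overlap less likely. The 14 came without Ctrl 3M replicate 2, and 5 genes had counts in that library alone.

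No Hox gene of the first table was called (0) under any setting run. DESeq2 gave an adjusted p to none of them, so that setting could not call any. Members without overlap, lower, numbered 2 to 5 with a library left out. Context list members called were 2, but 5 under DESeq2, 1 under the replicate block and 1 to 1 with a library left out. Members above background were 0 at the 99th percentile and 4 per kb of exon. With a library left out, the log2 fold change of Hoxb7 ranged from -0.066 to 0.260 and that of Hoxd8 from -0.439 to 0.433, and Hoxd8 was at 0.138 under the replicate block, none of them called. Libraries share only a number across groups. The replicate block gave 192 calls over all genes of the first table against 270 without it, and 0 against 2 in the 3M table. A Hox gene at 0 over a 3M group may have up to 12 counts at this depth.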
